A study of Homo sapiens with 6 samples.

Results

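The regions described here are the H3K4me2 peaks of human chromosome 19 that lie outside its clusters of zinc finger genes. Members were chosen by position alone: the summit had to lie on chromosome 19 (hg19) and outside 6 windows, at 11.7 to 12.8, 19.8 to 24.4, 36.7 to 38.3, 44.3 to 45.0, 52.3 to 54.0 and 56.6 to 59.1 Mb. Of the 99997 vehicle regions, 3173 were members, as were 3461 of the 128134 regions called at 4 h of GSK2879552 (GSK 4 h) and 3354 of the 127189 called at 24 h (GSK 24 h). These are 3.17%, 2.70% and 2.64% of the lists.

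H3K4me2 was mapped by ChIP-seq in LNCaP, an androgen-responsive PCa cell line, after 3 days in medium with 5% charcoal-stripped serum (CSS), which is low in steroid hormones. The 6 samples form 3 groups of 2 replicates, labelled vehicle without GSK, DHT with GSK2879552 for 4 h and DHT with GSK2879552 for 24 h. DHT is an androgen and GSK2879552 an inhibitor of the demethylase LSD1. The treatment protocol names GSK2879552 and not DHT, so effects of the androgen and of the inhibitor cannot be told apart in any difference from vehicle. The authors made 1 peak list per group from both replicates. No value below therefore has a replicate error, and no difference was tested. The 95% intervals of numbers and shares cover counting error only. Those of medians cover the spread between regions of a list, with regions taken as independent. No interval measures the spread between replicates.

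Dimethylation of histone H3 at lysine 4 marks promoters and enhancers that are active or poised. LSD1 (KDM1A) removes it together with monomethylation at the same residue, and also serves as a coregulator of the androgen receptor. Chromosome 19 is small and crowded with genes, many of which have CpG island promoters. Its zinc finger genes stand in tandem arrays that carry much repressive H3K9me3, and these arrays are left out here. The gene and promoter tables used here (RefSeq, GRCh38.p14) covered 23 chromosomes together. Chromosome 19 had 1451 protein-coding genes, the rank 2 number among the 23, although it came at rank 20 by spanned length. The median GC content of its 1901 promoters, from 250 bases before to 50 after each start, was 62.7% against 58.3% on the other chromosomes. The 1581 promoters of chromosome 19 whose gene symbols were not those of zinc finger families had a median of 63.3%. The description as a gene-dense and GC-rich chromosome thus matched these tables. No gene annotation in hg19 was used, so no region is assigned to a gene and no sequence is shown.

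The depth behind the lists was close, at 9.43 (vehicle), 10.1 (GSK 4 h) and 8.98 (GSK 24 h) tags per kb of genome, as computed from the peak values. To compare signal between lists, the number of fragments over each summit (the pileup) was recovered from the fold enrichment and the p-value, then divided by that library's genome-wide background. This ratio is called the height below. A height of 64 means that 64 times as many fragments covered the summit as the background level of that library gave.

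To see how crowded these parts of chromosome 19 were, regions were counted per Mb of spanned length, 43.7 Mb without the centromeric gap of 3.11 Mb. There were 72.5 member regions per Mb under vehicle, 79.1 at 4 h and 76.7 at 24 h. The rest of the genome held 34.2, 44.0 and 43.7 regions per Mb. The members were therefore 2.12 times as dense as the rest under vehicle (95% interval 2.05 to 2.20), 1.80 times (1.74 to 1.86) at 4 h and 1.75 times (1.69 to 1.81) at 24 h. Among 24 chromosomes, with chromosome 19 represented by the members, this was the highest density in all 3 lists, ahead of chromosome 17 with 57.6, 69.0 and 66.0 per Mb. The zinc finger windows on the same chromosome held 54.7, 57.7 and 55.8 regions per Mb. The gene-poor chromosomes 4, 13 and 18 together held 25.6, 34.0 and 35.3. Member regions covered 5.15% of their length under vehicle, 5.54% at 4 h and 5.36% at 24 h.

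The member regions were also broader and taller than those elsewhere. Their median width was 589 bp (vehicle), 613 bp (GSK 4 h) and 625.5 bp (GSK 24 h), against 472, 434 and 490 bp in the rest of the genome. The median summit was covered by 45, 46 and 42 fragments, against 22, 21 and 21 in the rest. In heights this was 21.6, 24.4 and 21.4, against 10.6, 11.2 and 10.7. The zinc finger windows of the same chromosome were close to the members, with a median vehicle height of 20.6, and no other chromosome was above 14.9.

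The fold enrichment assigned by the peak caller did not show this gap. The median fold of the members was 4.89 (vehicle), 4.89 (GSK 4 h) and 4.83 (GSK 24 h), and that of the rest 4.95, 4.86 and 4.72. The fold divides a summit by its local background. At the median member, that background was 3.83, 4.03 and 3.81 times the genome-wide level, while at the median region elsewhere it was 1.54, 1.50 and 1.57 times. Only 9.96% of vehicle members stood on the bare genome-wide background, against 27.5% of the other vehicle regions. Member regions also stood close together: the median gap to the next one was 6827 bp under vehicle, 6319 bp at 4 h and 6252 bp at 24 h, against 12147, 9796.5 and 10502.5 bp elsewhere. A next region followed within 1 kb for 27.7%, 29.7% and 30.3% of members and for 21.5%, 25.1% and 23.3% of the others.

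To ask whether the treated lists held more regions here, the numbers were set against vehicle. The members numbered 3173 under vehicle, 3461 at 4 h and 3354 at 24 h, which is 1.09 times (95% interval 1.04 to 1.14) and 1.06 times (1.01 to 1.11) the vehicle number. The rest of the genome gave 1.29 times (1.28 to 1.30) and 1.28 times (1.27 to 1.29). The members had the lowest ratio of the 24 chromosomes at both times. The next lowest was chromosome 17, with 1.20 and 1.15. The zinc finger windows were lower still, at 1.06 and 1.02. The small excess over vehicle depended on list length and threshold. With each list cut to its 99997 regions of highest -log10 p, the members numbered 3173, 2984 and 2950, or 0.940 and 0.930 times vehicle, while the number in the rest of the genome was nearly the same in the 3 lists by construction. Among regions with a -log10 q of 10 or more, the ratios were 1.13 and 1.05 for the members and 1.26 and 1.17 for the rest. Among those with 30 or more they were 0.964 and 0.707 for the members and 0.967 and 0.644 for the rest, so that at 24 h the order was turned.

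**Figure D1:**
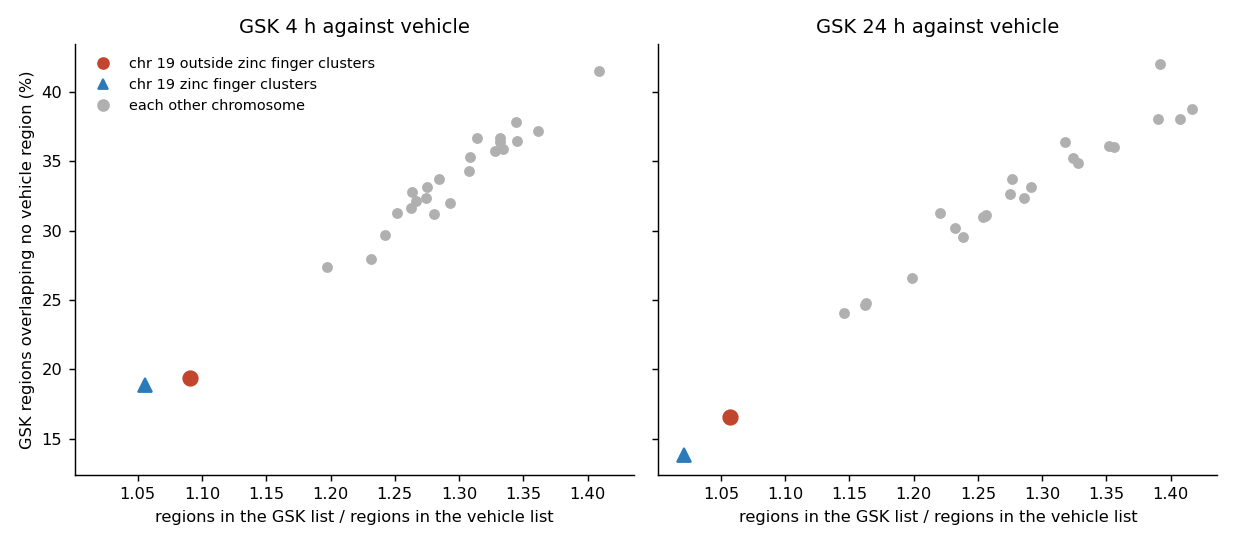
Number of regions in each GSK list divided by the number in the vehicle list (x axis, ratio) against the percentage of GSK regions that overlap no vehicle region (y axis), for 4 h (left) and 24 h (right). Each grey point is 1 other chromosome, the red point is chromosome 19 outside the zinc finger clusters and the blue triangle is the zinc finger clusters. The red point lies apart from the grey ones at low values on both axes, at a ratio of 1.09 and 19.4% for 4 h and a ratio of 1.06 and 16.5% for 24 h.

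The next question was which member regions were in 1 list and not in another, with an overlap of at least 1 bp counted as shared. Of the GSK 4 h members, 671 overlapped no vehicle region. This is 19.4% (95% interval 18.1 to 20.7), beside 33.0% over the whole list. Of the GSK 24 h members, 555 overlapped no vehicle region, or 16.5% (15.3 to 17.8), beside 32.0% over the whole list. Both shares were the lowest of the 24 chromosomes, and chromosome 17 was next with 27.4% and 24.1%. The zinc finger windows were lower still, at 18.9% and 13.8%. In the other direction the members were below the genome at 4 h and close to it at 24 h. The 4 h share was the lowest of the 24 chromosomes, with chromosome 16 next at 13.5% and the zinc finger windows at 12.3%. The 24 h share came at rank 10 from the highest. Of the vehicle members, 420 overlapped no GSK 4 h region (13.2%, 12.1 to 14.5), beside 15.7% over the whole list. Those without a GSK 24 h region numbered 450 (14.2%, 13.01 to 15.44), beside 14.0% over the whole list.

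Since the share of regions without a counterpart was highest among low regions, these shares were also taken within classes of height. If the regions of the rest of the genome had the heights of the members, 19.9% of them would be absent from the vehicle list at 4 h and 18.9% at 24 h, close to the 19.4% and 16.5% of the members. In the weakest class, with heights under 8, 363 of 569 GSK 4 h members (63.8%, 59.8 to 67.6) overlapped no vehicle region, against 66.1% of the rest. At 24 h these were 268 of 511 (52.4%, 48.1 to 56.7) against 66.8%. With heights of 8 to 16 it was 20.6% (17.7 to 23.9) of members and 25.7% of the rest at 4 h. At 24 h it was 20.6% (17.8 to 23.6) and 23.2%. In the classes from 16 to 64 the members were above the rest. Only for heights of 32 to 64 at 4 h did the members' interval leave out the value of the rest. With heights of 16 to 32, 12.1% (10.1 to 14.3) of members and 10.5% of the rest had no vehicle region at 4 h. At 24 h it was 9.19% (7.64 to 11.0) and 8.05%. With heights of 32 to 64 it was 5.15% (4.02 to 6.59) and 3.82% at 4 h, and 3.31% (2.33 to 4.69) and 2.90% at 24 h. From a height of 64 upwards, 0 of 156 GSK 4 h members were without a vehicle region, which allows a share of up to 1.92%, and 0 of 62 GSK 24 h members, which allows up to 4.84%. These limits are 3 counts divided by the number of members. The upper Wilson limits for heights of 64 to 128 were larger, at 2.42% for 0 of 155 and 5.92% for 0 of 61. The vehicle members stood on the other side of the rest once heights were taken into account. At their heights, the rest would be absent from the GSK 4 h list for 9.98% and from the GSK 24 h list for 9.97%, below the 13.2% and 14.2% of the members. Of the 517 vehicle members with heights under 8, 40.0% (35.9 to 44.3) had no region at 4 h and 37.9% (33.8 to 42.2) none at 24 h, against 31.5% and 26.3% of the rest.

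Merged across the 3 lists, the members formed 3748 regions. Of these, 2382 (63.6%, 62.0 to 65.1) held a region of every list, against 47.9% of the 151839 merged regions of the genome. Regions of the GSK 4 h list alone made up 10.0% of the merged members (376) and 14.5% of the genome. For the GSK 24 h list alone it was 6.54% (245) and 14.3%. Regions of both GSK lists without vehicle made up 6.48% (243) and 11.0%. Regions of the vehicle list alone were 7.63% of the merged members (286), and 5.45% of the genome. The GSK lists shared more with each other here than elsewhere: 84.3% of the 4 h members overlapped a 24 h region and 89.3% of the 24 h members a 4 h region, against 78.1% and 77.4% in the rest of the genome. The members were taller than the rest in every list. The shares in this paragraph were not taken within classes of height, so the part of height in them was not tested.

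Treated regions without a vehicle counterpart lay nearer to vehicle regions here than elsewhere. Of the 671 GSK 4 h members of this kind, 252 (37.6%, 34.0 to 41.3) were within 1 kb of a vehicle region, and the median distance was 3258 bp. At 24 h it was 231 of 555 (41.6%, 37.6 to 45.8), with a median distance of 2290 bp. In the rest of the genome, 28.4% and 24.7% were within 1 kb and the median distances were 6530 and 8328 bp. The density of vehicle regions, which was higher on chromosome 19, moves with these distances, and its part in them was not tested. These members were narrow and low, with median widths of 271 and 296 bp and median heights of 7.97 and 8.14.

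There were fewer very tall member regions in both treated lists than under vehicle. A height of at least 64 was reached by 410 members under vehicle, 156 at 4 h and 62 at 24 h. As shares of the members these are 12.9% (11.8 to 14.1), 4.51% (3.87 to 5.25) and 1.85% (1.44 to 2.36). In the rest of the genome the shares were 6.90%, 1.48% and 0.374%. The number at 4 h was 38.0% of the vehicle number for the members and 27.6% for the rest, and at 24 h it was 15.1% and 6.93%. At 4 h the members ranked highest of the 24 chromosomes, but chromosome 1 (36.2%) and chromosome 17 (35.5%) were near. The lowest was chromosome 13 (5.47%). At 24 h the members came at rank 2 of the 23 chromosomes with a value, with chromosome Y at 85.7% and chromosome 16 at 13.5%. The zinc finger windows were at 7.69% and 15.4%. The members made up a larger part of the tall regions in the treated lists, with 5.78% (5.26 to 6.35) of all such regions under vehicle, 7.81% (6.71 to 9.07) at 4 h and 11.8% (9.32 to 14.9) at 24 h. The class below, with heights of 32 to 64, held 650 members under vehicle, 1145 at 4 h and 905 at 24 h (20.5%, 33.1% and 27.0% of the members). The same class held 7.11%, 11.9% and 8.48% of the rest, with the same order of the lists. A -log10 q of at least 100 was reached by 277 members under vehicle, 8 at 4 h and 5 at 24 h. These are 0.029 and 0.018 times the vehicle number, near the 0.023 and 0.012 times of the rest of the genome. The heights were recovered in part from the p-value, from which the q-value also derives. The q-value is therefore not an independent check of the heights.

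**Figure D2:**
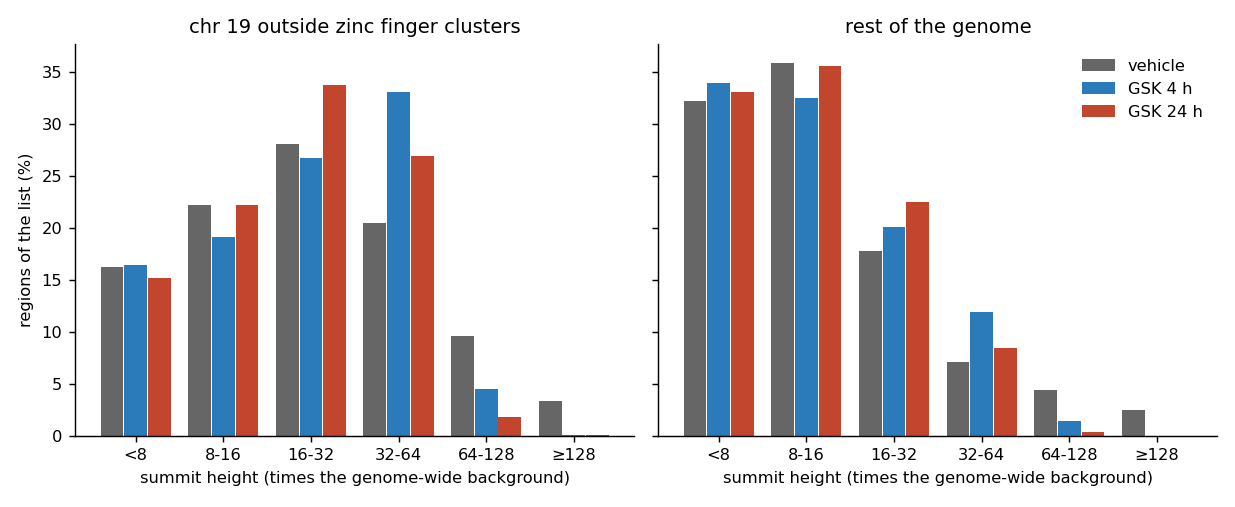
Percentage of the regions of each list (y axis) by class of summit height, in multiples of the genome-wide background (x axis), for chromosome 19 outside the zinc finger clusters (left) and the rest of the genome (right). Bars stand for vehicle (grey), GSK 4 h (blue) and GSK 24 h (red). The 64-128 class of chromosome 19 goes from 9.58% under vehicle to 4.48% and 1.82%, while the 32-64 class goes from 20.5% to 33.1% and 27.0%.

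To follow the strong regions one by one, each vehicle member was set against the tallest GSK region it overlapped. Of the 304 vehicle members with heights of 64 to 128, 8 had no GSK 4 h region, 227 had 1 and 69 had several. At the 296 with a counterpart, the median log2 height ratio at 4 h was -0.89 (-0.96 to -0.81), against -1.05 (-1.07 to -1.03) in the rest of the genome. At 24 h, 24 had no region, 203 had 1 and 77 had several, and the ratio was -1.27 (-1.32 to -1.17) against -1.53 (-1.56 to -1.51). The tallest counterpart was under 50% of the vehicle height for 39.9% (34.5 to 45.5) of these members at 4 h and 66.8% (61.1 to 72.0) at 24 h. In the rest it was 53.8% and 79.4%. The median ratio of the members of this class was thus nearer to 0 than that of tall regions elsewhere, and the intervals did not overlap at either time. These ratios leave out regions with no counterpart, which were 2.63% of the members and 1.51% of the rest at 4 h, and 7.89% and 4.35% at 24 h.

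There were 106 vehicle members with heights of at least 128. Their median log2 ratio was -1.31 (-1.43 to -1.24) at 4 h and -1.89 (-2.01 to -1.73) at 24 h. The intervals for the rest of the genome (-1.39 to -1.36 and -2.02 to -1.98) overlapped these. At 24 h, 98 of the 104 with a counterpart (94.2%) were under 50% of the vehicle height, against 97.7% of the rest. Members with vehicle heights of 32 to 64 were near their vehicle height, with a ratio of 0.13 (0.09 to 0.17) at 4 h and -0.06 (-0.09 to -0.04) at 24 h. Members with heights under 8 stood at 0.49 (0.41 to 0.56) and 0.29 (0.22 to 0.38). The vehicle height both sets the class and is the base of the ratio, so the slope across classes is not read here, and the members are read only against the rest at the same height.

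**Figure D3:**
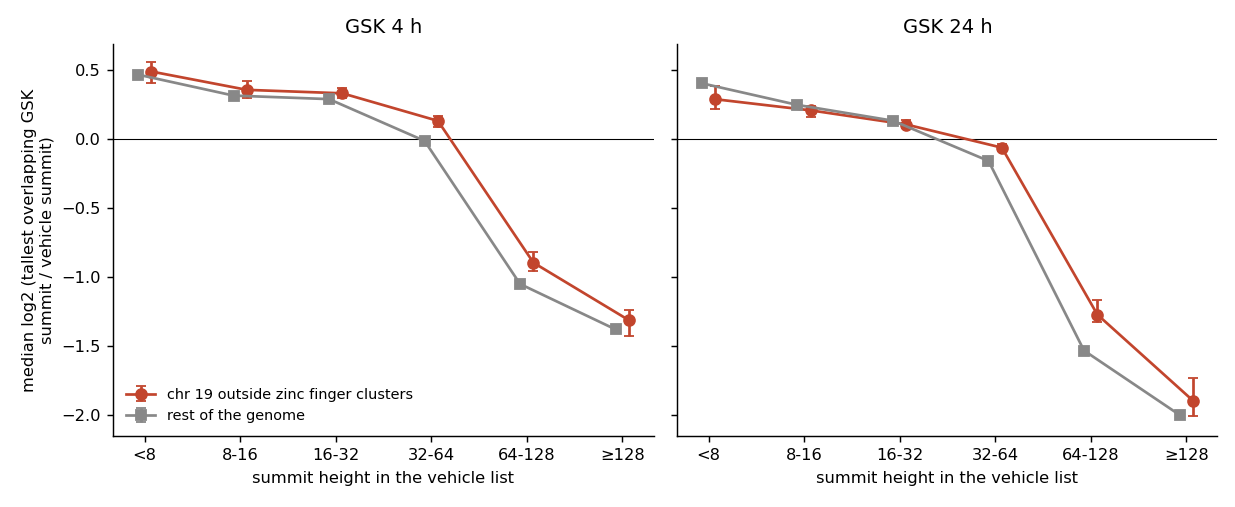
Median log2 ratio of the tallest overlapping GSK summit to the vehicle summit (y axis) by vehicle height class, in multiples of the genome-wide background (x axis), at 4 h (left) and 24 h (right). Circles are chromosome 19 outside the zinc finger clusters, squares the rest of the genome, and bars 95% order-statistic intervals. In the 64-128 class the circles lie at -0.89 and -1.27 and the squares at -1.05 and -1.53.

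To avoid that choice, heights were compared at regions matched 1 to 1 across the lists, ranked by the list outside the comparison. Matching leaves out regions with no counterpart and those with several, so the values below do not cover them. There were 1729 matched members (54.5% of vehicle members, against 52.7% in the rest) among 52791 matched regions. Their median log2 height ratio was 0.20 (0.17 to 0.23) at 4 h and 0.01 (-0.02 to 0.04) at 24 h, against 0.25 and 0.15 in the rest of the genome. The 24 h value was the lowest of the 24 chromosomes, but chromosome 22 was next at 0.025, within the members' interval. The zinc finger windows were at 0.28 at 4 h and 0.15 at 24 h. All matched regions together stood at 0.25 and 0.15 relative to vehicle, so the members were below the genome-wide shift at both times, and with heights divided by the genome-wide median height they were at -0.11 and -0.18, where the rest was at -0.058 and -0.037. At 4 h, 115 of the 1729 members were at 50% of the vehicle height or less (6.65%, beside 6.03% of all matched regions), and 49 were at 2 times or more (2.83%, beside 4.94%). At 24 h, 184 were at 50% or less (10.6%, beside 7.89%), and 18 were at 2 times or more (1.04%, beside 2.48%).

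At 24 h, the members differed most from other matched regions in the highest decile. Among the 430 members in the highest decile of GSK 4 h height, the median log2 ratio of GSK 24 h to vehicle was -0.15 (-0.20 to -0.12), while in the rest of the genome this decile was at -0.61 (-0.71 to -0.54). Some other parts of the genome were near the members, with -0.18 on chromosome 16, -0.24 on chromosome 21 and 0.07 in the zinc finger windows. A height of 50% of vehicle or less was found for 21.2% of these members and for 43.6% of the rest. The makeup of this decile also differed, as 32.1% of these members and 51.7% of the others had a vehicle height of at least 64. In the lower deciles at 24 h the order was the other way, with medians of 0.04 for members and 0.21 for the rest in the lowest decile and of 0.08 and 0.23 in the fifth. The gap was smaller in the fourth, with 0.22 (0.08 to 0.30) and 0.26. In the ninth both medians were 0.03. At 4 h, ranked by GSK 24 h height, the 459 members of the highest decile were at 0.03 (0.00 to 0.09) and the rest at -0.04 (-0.06 to -0.02). Larger gaps of either sign were seen at 4 h in other deciles, such as 0.41 for members and 0.27 for the rest in the second and 0.15 and 0.30 in the fourth.

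**Figure D4:**
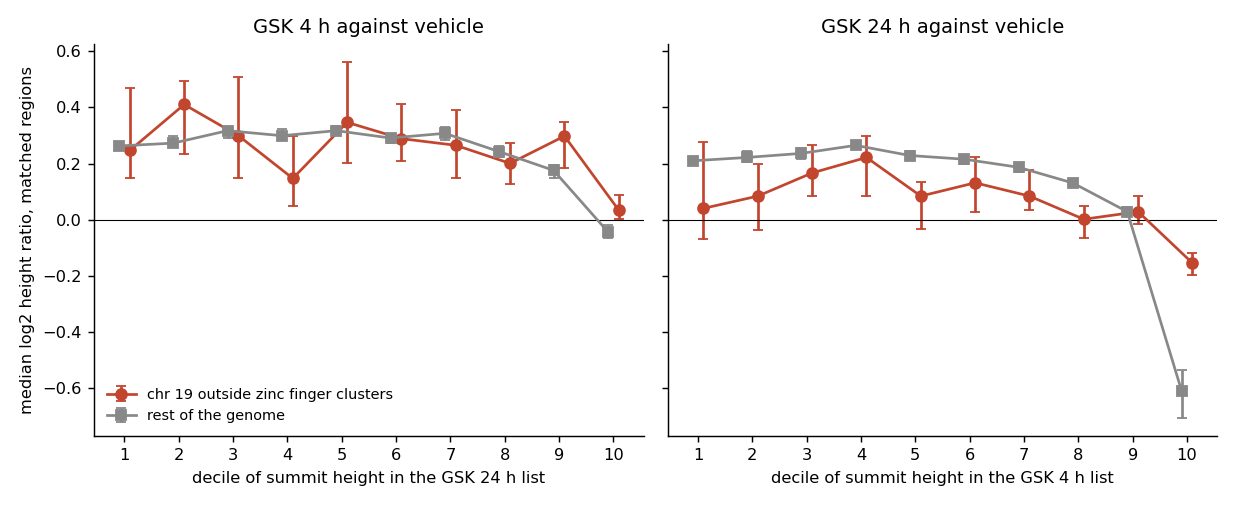
Median log2 height ratio of regions matched 1 to 1 in the 3 lists (y axis) by decile of height in the list outside the comparison (x axis, 1 is the lowest), for GSK 4 h (left) and GSK 24 h (right) against vehicle. Circles are chromosome 19 outside the zinc finger clusters, squares the rest of the genome, and bars 95% order-statistic intervals. At 24 h the circles lie between 0.002 and 0.22 up to decile 9, with a last value of -0.15. The squares go from 0.21 in the first decile to -0.61 in the last.

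The tallest single regions of these parts of chromosome 19 had lower summits in both treated lists. The tallest vehicle summit was at chr19:34972260-34973832 (hg19), with 402 fragments under vehicle, 104 at 4 h and 69 at 24 h, or heights of 193, 55.3 and 35.1. Its 4 h summit lay 380 bp from the vehicle summit. The next was chr19:30363991-30365231, with 385, 142 and 86 fragments. The region with the rank 3 summit, chr19:35520868-35522321, had 382, 118 and 76 fragments. All 3 lie in the segment between 24.4 and 36.7 Mb. In each of them the vehicle list had the highest summit and the 24 h list the lowest. The fold differed less between lists than the height. It was 9.10, 7.82 and 8.35 at the first region, 15.0, 11.2 and 9.94 at the next, and 11.6, 8.94 and 9.14 at the last. The local background was also lower in the treated lists. It was 20.8, 6.60 and 3.75 times the genome-wide level at the first, 11.8, 6.28 and 3.94 at the next, and 15.4, 6.54 and 3.78 at the last.

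The tallest vehicle summits of the other large segments also stood above both treated summits there. All of these were picked as the highest values of the vehicle list, so a lower value in another list follows in part from the choice, and they are given as a description. At chr19:8213588-8214876 there were 379, 146 and 97 fragments, and at chr19:41195757-41197436 there were 366, 141 and 104. At chr19:18722407-18724367 there were 373, 175 and 167, with the treated summits 382 and 432 bp from the vehicle summit. At chr19:56152184-56154868, a region of 2534 bp under vehicle, there were 377, 149 and 134, with a local background of 29.4 times the genome-wide level under vehicle and a fold of only 6.06. At chr19:51842368-51844051 there were 365, 128 and 181, with the 24 h summit above the 4 h summit. That 24 h summit lay 696 bp from the vehicle summit, and the 24 h summit of the region before it 692 bp. Where summits lay this far apart, the values describe the tallest point of a region in each list and not 1 position.

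Among the matched members, the lowest 24 h ratios were at regions that were already lower at 4 h. The region chr19:33716268-33717195 had 234, 51 and 22 fragments, a log2 height ratio of -2.05 (-2.52 to -1.61) at 4 h and -3.33 (-4.03 to -2.69) at 24 h. At chr19:49242200-49243144 there were 321, 71 and 31 fragments, and the ratios were -2.03 and -3.29. At chr19:15090129-15091016 there were 109, 22 and 11, with ratios of -2.16 and -3.22. All 3 had the most fragments under vehicle and the fewest at 24 h. The highest 24 h ratios were nearer to 0 and rested on few fragments. There were 10, 13 and 30 fragments at chr19:13329958-13330797, a log2 ratio of 1.67 (0.60 to 2.87) at 24 h. At chr19:33424613-33425303 there were 10, 15 and 28, a ratio of 1.57 (0.48 to 2.78), and at chr19:5298330-5299337 there were 15, 37 and 38, a ratio of 1.43 (0.53 to 2.39). In the first pair the 24 h list stood above the other lists, and in the last both treated lists stood above vehicle. These regions were picked as the extremes of 1729 values.

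Of the 3173 vehicle members, 286 were in neither GSK list (9.01%, close to the 8.25% of the rest), with a median height of 8.16, while the 2589 in both had a median of 24.95. The 3 with the highest -log10 p were far from weak. The region chr19:1269315-1269785 had 258 fragments and a height of 124, chr19:1248911-1249621 had 314 fragments and a height of 151, and chr19:47731284-47731777 had 186 fragments and a height of 89.2. Their folds were low, at 4.86, 3.88 and 4.67, since the local background was 25.1, 38.5 and 18.7 times the genome-wide level. The nearest GSK 4 h region was 509, 895 and 427 bp away and the nearest GSK 24 h region 482, 1788 and 390 bp. All 3 thus had regions of both treated lists within 2 kb, but none over them.

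Of the 243 merged members called in both GSK lists and not under vehicle, the 3 that ranked highest were chr19:10526921-10527962 with 76 fragments at 4 h and 70 at 24 h, chr19:55919679-55920198 with 90 and 59, and chr19:1653129-1653886 with 63 and 51. The nearest vehicle region lay 3638, 363 and 1010 bp away. The first was the only one of these 3 with no vehicle region within 2 kb. The regions of a single GSK list that ranked highest lay beside vehicle regions. The strongest of the GSK 4 h list, chr19:1113602-1113905, had 71 fragments and lay 822 bp from a vehicle region, and chr19:16714316-16714716 had 49 and lay 538 bp away. The strongest of the GSK 24 h list, chr19:570301-570584, had 67 fragments and lay 373 bp from a vehicle region, and chr19:41037059-41037374 had 48 and lay 365 bp away.

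The members were spread unevenly along the chromosome. The 6 windows divide it into 7 segments, of which the last, beyond 59.1 Mb, held only 3, 1 and 1 regions. From 0 to 11.7 Mb there were 963 regions under vehicle, 1015 at 4 h and 998 at 24 h. From 12.8 to 19.8 Mb there were 570, 607 and 587, from 24.4 to 36.7 Mb 420, 540 and 497, and from 38.3 to 44.3 Mb 407, 432 and 414. From 45.0 to 52.3 Mb there were 634, 688 and 682, and from 54.0 to 56.6 Mb 176, 178 and 175.

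The segment from 24.4 to 36.7 Mb, which spans the centromere, differed from the others in these counts. It was the sparsest large segment, with 45.7 vehicle regions per Mb against 67.7 to 86.8 in the other 5, and it had the lowest median vehicle height, 15.4 against 17.5 to 27.3. Its number of regions was 1.29 times vehicle (1.13 to 1.46) at 4 h and 1.18 times (1.04 to 1.35) at 24 h. The other 5 large segments together went from 2750 to 2920 and 2856, which is 1.06 times (1.01 to 1.12) and 1.04 times (0.986 to 1.09). The share of its GSK regions that overlapped no vehicle region was 29.1% (25.4 to 33.0) at 4 h and 23.5% (20.02 to 27.47) at 24 h, while in the other 5 it was 15.7% to 20.6% and 12.3% to 19.1%. At 4 h the intervals for these shares did not overlap those of any other large segment. In density, height and ratio this segment was the nearest to the rest of the genome.

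**Figure D5:**
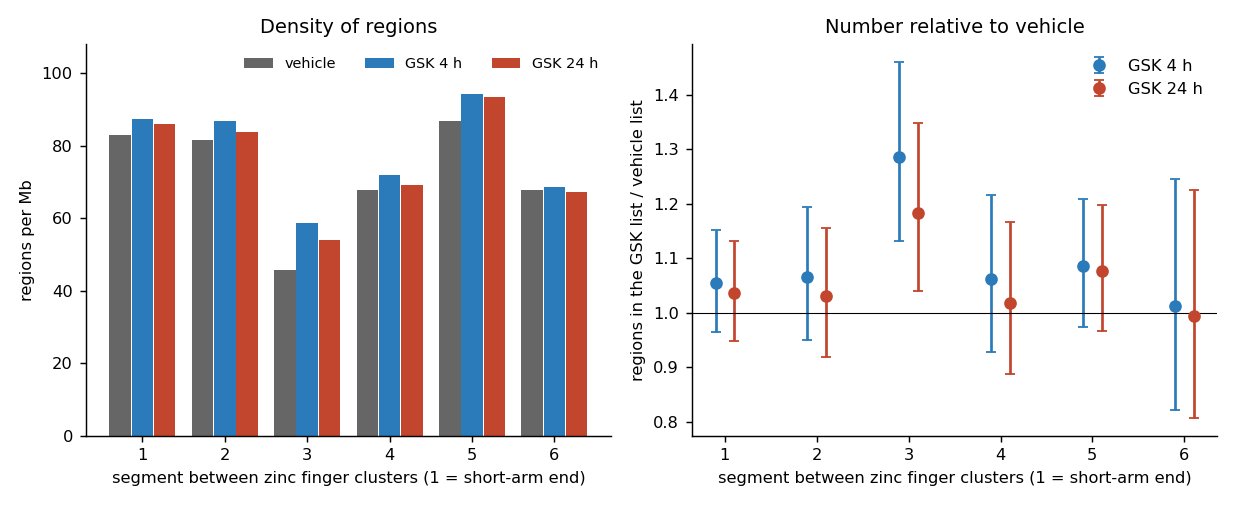
Regions per Mb (left, y axis) and number of regions relative to vehicle (right, y axis, ratio) in the 6 large segments of chromosome 19 between zinc finger clusters, numbered from the short-arm end (x axis). Bars and points stand for vehicle (grey), GSK 4 h (blue) and GSK 24 h (red), and error bars are 95% counting intervals. Segment 3, with 45.7 vehicle regions per Mb, has the fewest regions per Mb and the highest ratio at both times.

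Under vehicle, tall regions were most frequent near the short-arm end. A height of at least 64 was reached by 158 vehicle members from 0 to 11.7 Mb (16.4% of the segment) and by 92 from 12.8 to 19.8 Mb (16.1%), but by 46 from 45.0 to 52.3 Mb (7.26%), the densest segment. At 24 h these numbers were 18 (1.80%), 8 (1.36%) and 8 (1.17%). The highest shares at 24 h were elsewhere, with 8 of 175 regions from 54.0 to 56.6 Mb (4.57%) and 13 of 414 from 38.3 to 44.3 Mb (3.14%). The densest 100 kb bin, chr19:1200001-1300000, had 24 regions under vehicle, 22 at 4 h and 24 at 24 h, where the median bin with a vehicle region had 7. Of its regions, 14 were tall under vehicle, 6 at 4 h and 2 at 24 h, and the tallest had heights of 177, 85.5 and 68.2. Its number of regions was thus nearly the same in the 3 lists while its tall summits were fewer in the treated ones. The bin chr19:56100001-56200000 had 24, 22 and 19 regions, with 4, 1 and 3 tall ones. The bin chr19:1000001-1100000 had 20, 20 and 16 regions, with 4, 2 and 0 tall ones.

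At the borders with the zinc finger windows, the members did not thin out. Within 100 kb outside the 12 edges there were 82 vehicle members with a median height of 22.8, close to the 21.6 of all vehicle members, and 100 regions within 100 kb inside them with a median height of 31.4. At 4 h there were 92 outside and 107 inside, with median heights of 25.2 and 25.5, and at 24 h 83 and 101, with 23.9 and 21.4. The median height inside was the higher one under vehicle and the lower one at 24 h.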

How the data were processed

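H3K4me2 ChIP-seq of 6 LNCaP samples (3 groups of 2) was analysed from the 3 peak lists that the authors deposited, each made from both replicates. The submitters' processing notes name BWA 0.7.2-r351, SAMtools 0.1.18, MACS2 2.0.10.20131216 and hg19; the control and settings are not given in the sources used here. Each deposited record has a position, a summit, a fold (a ratio of the summit to local background), a −log10 p-value and a −log10 q-value. The deposited score, about 10 times the −log10 q-value per the deposited values, was not analysed. None of these values was normalised between lists by the authors. Records outside chromosomes 1 to 22, X and Y (1168, 1642 and 1363) were left out.

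For each region, a whole number of fragments was sought that gave both the deposited fold, as (pileup + 1)/(background + 1), and the p-value, as a Poisson tail, within 0.001 on the −log10 scale. It was found for all but 2 regions, neither a member. Depth was the genome-wide background divided by the shortest record. Shares have Wilson intervals, number ratios Poisson intervals and medians order-statistic intervals, all at 95%. The steps were tested on simulated data. Python 3.11.15, numpy 2.4.6, pandas 2.3.3 and scipy 1.17.1 were used.

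Regions were named by rule. The 3 highest vehicle summits and that of each segment were taken. So were the 3 largest falls and rises to 24 h among matched members with at least 20 fragments in some list. The 3 vehicle-only members, and 2 of each single GSK list, were those of highest −log10 p. The 3 both-GSK-only members were ranked by the lower of their 2 −log10 p percentiles. The 3 densest 100 kb bins were also named (a tie was broken by summed height). The members and rules were chosen with earlier results of these data known. Planned values at genes and promoters were not computed, since the tables at hand are of another build (GRCh38.p14).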

Additional observations from a re-analysis of the deposited data

Results flagged for a closer look

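Sequence assigned to chromosome 19 but not placed on it, which no comparison above uses, also carried records: 14 under vehicle, 15 at 4 h of GSK2879552 and 17 at 24 h. Their highest -log10 q was 34.6, 54.2 and 47.9. The treated counts exceed the vehicle count by 1 and 3, and with so few records this difference was not detectable beyond counting error.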

How the results depend on the processing

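The number ratios, relative densities, overlap shares and median height ratios of the members were recomputed under changed settings. This gave 84 values, several of them from the same setting. Of these values, 28 stayed within the 95% interval of the main setting and 49 left it. The other 7 were log2 values whose interval lay above 0 and that became negative. The 24 h height ratio, whose interval held 0, is counted among the 49 where it became negative. Widening each window by 0.5 Mb, or keeping the centromeric gap in the length, left every value within its interval. The cause of the other movements was not tested.

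Among regions with a -log10 q of 5 or more, the relative density was 2.31 (vehicle), 1.996 (GSK 4 h) and 2.06 (GSK 24 h), and 82.5% of 4 h and 85.0% of 24 h members overlapped vehicle regions. At 10 or more the densities were 2.89, 2.61 and 2.61, with 88.6% of vehicle members in the 4 h list and 85.2% of 24 h members in the vehicle list. At 30 or more the log2 number ratios turned to -0.053 (4 h) and -0.50 (24 h), the densities were 4.14, 4.13 and 4.54, and 68.9% and 56.6% of vehicle members overlapped 4 h and 24 h regions and 75.7% of 4 h members vehicle regions. At 100 or more the log2 number ratios were -5.11 and -5.79, the densities 3.39, 4.32 and 4.98, and the overlaps 2.17% and 1.08% of vehicle members, 75% of 8 members at 4 h and 60% of 5 at 24 h. With lists of equal length the log2 number ratios turned to -0.089 and -0.105, the treated densities were 1.99 and 1.97, and the overlaps were 82.9% and 81.6% of vehicle, 87.9% of 4 h and 89.2% of 24 h members. With records within 1 kb merged, the densities were 1.95, 1.69 and 1.59, and 87.1% of vehicle members overlapped the 24 h list and 82.2% of 4 h and 85.9% of 24 h members the vehicle list.

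With 50% of a region required to be covered, the overlaps were 81.7% and 81.2% of vehicle, 74.4% of 4 h and 77.0% of 24 h members. With 50% of both regions they were 68.4%, 66.8%, 62.7% and 63.2%. The median log2 ratio at matched members was 0.065 at 4 h with fold in place of height, 0.166 (4 h) and -0.019 (24 h) with regions covering 50% of each other, and 0.147 and -0.027 with a -log10 q of at least 10 in all 3 lists. It turned to -0.11 at 4 h, and was -0.18 at 24 h, with heights divided by the genome-wide median. This scaling moves all regions alike, and the rest of the genome also became negative (-0.058 and -0.037).

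No paired analysis was possible because the authors combined both replicates of a group before peak calling, and no replicate was left out for the same reason. Values at promoters and genes were planned and not run. At this depth a region at the median height of the members rested on 42 to 46 fragments.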
